A study of Mus musculus with 6 samples.

Results

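The transcripts examined here encode the cyclins and cyclin-dependent kinases (CDKs) that carry a cell through G1 and into S phase, namely Ccnd1, Ccnd2, Ccnd3, Ccne1, Ccne2, Ccna2, Cdk2, Cdk4 and Cdk6, together with the CDK-activating phosphatase gene Cdc25a. These 10 genes were taken, out of 18193 genes named on the array, through every probe set that the platform annotation assigns to 1 of them alone, which gave 29 of 45037 probe sets. RNA from whole uteri at 3.5 dpc (days post coitum, counted from the vaginal plug after mating with C57BL/6 males) was hybridized to Affymetrix mouse arrays, with 3 arrays from Arid1a d/d mice and 3 from Arid1a f/f mice. Arid1a d/d mice carry Pgr cre/+ with 2 floxed Arid1a alleles, so that Arid1a is lost in cells that express the progesterone receptor (PGR) and kept in the other cells of the uterus. Arid1a f/f mice carry the floxed alleles without Cre, and since no array came from mice with Cre alone, the Cre allele at the Pgr locus and the loss of Arid1a cannot be told apart. The age of these mice and whether animals were pooled are not given in the sources used here, and since the labels do not say that each array came from a separate mouse, the p-values reflect only how far these arrays spread, which may be technical.

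D-type cyclins pair with CDK4 and CDK6 in G1 and begin to phosphorylate the retinoblastoma protein, which releases E2F transcription factors. E2F then drives the genes for cyclin E, cyclin A and the replication machinery. Cyclin E and cyclin A pair with CDK2, which CDC25A activates by removing inhibitory phosphates, and the cell enters and passes through S phase. In the mouse uterus, estrogen (E2) sends the epithelium through this sequence, and progesterone (P4) holds it back by keeping cyclin D1 and CDK4 out of the nucleus and by limiting CDK2 activity. At 3.5 dpc the epithelium normally stops dividing while the stroma proliferates. Cyclin D3 is further known for its part in decidual cells.

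Of the 10 members, 6 have a promoter window (250 bases before to 50 bases after a start site) in the RefSeq table of GRCm38.p6. Ccnd1, Ccnd2, Ccne2 and Ccna2 have no window there and were not searched. A binding motif searched for was found in 4 of the 6 members with a window, and not in Ccnd3 or Ccne1. The upstream stretches of Cdc25a, Cdk2 and Cdk4 are shown for their E2F match or their repeated E-box. The E2F motif was searched on both strands in 4 spellings, TTTGGCGC, TTTCCCGC, TTTGCCGC and TTTCGCGC. The E-box CACGTG, bound by MYC and related factors, reads the same on both strands. Capitals mark the matches, and the stretches end at the base before the start site (position -1).

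Cdc25a (chr9:109875429-109875578, plus strand): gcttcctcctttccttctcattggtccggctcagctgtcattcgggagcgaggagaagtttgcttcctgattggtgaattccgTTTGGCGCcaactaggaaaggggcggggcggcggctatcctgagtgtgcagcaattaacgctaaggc

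Cdk2 (chr10:128705052-128705211, minus strand): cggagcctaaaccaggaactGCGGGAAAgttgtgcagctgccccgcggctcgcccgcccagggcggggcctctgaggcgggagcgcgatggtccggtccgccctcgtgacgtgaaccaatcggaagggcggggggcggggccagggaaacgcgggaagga

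Cdk4 (chr10:127063335-127063534, plus strand): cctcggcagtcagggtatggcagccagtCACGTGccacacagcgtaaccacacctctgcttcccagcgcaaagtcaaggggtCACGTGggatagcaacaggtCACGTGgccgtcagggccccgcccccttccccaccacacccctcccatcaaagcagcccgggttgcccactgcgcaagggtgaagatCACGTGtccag

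The Cdc25a window held TTTGGCGC at positions -67 to -60, and the Cdk2 window held TTTCCCGC on the opposite strand at -140 to -133. An E2F match was present in 2.26% of all 32851 windows in the table. In the Cdk4 window the E-box occurred 4 times, first at -172 and last ending at -6, while the Cdk6 window held 1, at -220 to -215. At least 1 E-box was present in 7.15% of all windows and at least 4 in 0.0244%, which is 8 windows, a count chosen after the Cdk4 window had been read. These matches describe the letters only, and no binding was measured on them here.

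The deposited values are RMA intensities on a linear scale, with a median of 3.05 to 3.17 on the Arid1a d/d arrays and 3.1 to 3.15 on the Arid1a f/f arrays. Arid1a itself, on its brightest probe set, had 51.9, 51.9 and 58.2 in Arid1a d/d uteri, against 83.6, 86.9 and 104 in Arid1a f/f uteri (log2 fold change -0.76, adjusted p = 0.0120, limma); whether this probe set reads the floxed stretch is unknown, so that it may not check the deletion. The arrays measured whole uterus, so that fewer cells of a type and less RNA per cell cannot be told apart. Markers are counted below at an adjusted p under 0.05 in limma, where 3.37% of all genes were higher and 4.06% lower. Of 13 measured epithelial markers, 2 were higher and 0 lower. Their summed intensity was 1349, 2528 and 1810 in Arid1a d/d uteri, against 1397, 1415 and 1395 in Arid1a f/f uteri. Arid1a d/d replicate 2 stood highest. Of 12 endothelial markers, 0 were higher and 11 lower, and their sum was 281 to 338 in Arid1a d/d uteri and 635 to 658 in Arid1a f/f uteri. Stromal fibroblast markers (0 higher and 1 lower of 12) summed to 8521 to 10098 in Arid1a d/d uteri and 10879 to 12153 in Arid1a f/f uteri, and smooth muscle markers (0 higher and 1 lower of 12) to 8220 to 9846 in Arid1a d/d uteri and 9117 to 10329 in Arid1a f/f uteri. Leukocyte markers (0 higher and 2 lower of 11) summed to 436 to 551 in Arid1a d/d uteri and 576 to 878 in Arid1a f/f uteri. With 1 array left out, 6 to 9 endothelial markers were lower (6 without Arid1a f/f replicate 3), 0 to 2 epithelial markers were higher and 0 or 1 leukocyte markers were lower. No marker of these lists was at 0, and the part of cell composition in the results below was not tested.

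Cyclins D2 and E2 and the phosphatase Cdc25a rose in Arid1a d/d uteri. Cyclins D1, D3 and A2, Cdk2 and Cdk6 did not pass the test on any probe set. The calls rest on limma, since by the methods' t-test the adjusted p was 0.103 for Ccnd2, 0.168 for Ccne2 and 0.212 for Cdc25a. With each gene taken by its brightest probe set, 3 of 10 members passed upward and 0 downward (limma, adjusted p under 0.05, Benjamini-Hochberg over all 45037 probe sets). Among all genes taken the same way, 3.37% were higher and 4.06% lower. The members were chosen with earlier results of these data known, so the shares set beside all genes are descriptions only. The log2 fold change (log2FC, Arid1a d/d over Arid1a f/f) was above 0 for 9 of 10 members, with a median of 0.72 beside -0.018 over all genes. At an unadjusted p under 0.05, 7 members were higher and 0 lower, against 11.4% and 13.5% of all genes. On 5 members every Arid1a d/d array lay above every Arid1a f/f array, on 0 every one lay below, and on the other 5 the genotypes overlapped. That kind of separation occurred upward in 13.4% and downward in 16.0% of all genes. By probe set, 12 of 29 were higher and 0 lower, beside 2.42% and 2.35% of all probe sets, and 5 of 10 members had at least 1 higher probe set, beside 4.39% of all genes. Of the 29 probe sets, 6 were below the median of the table, 3.12, on at least 1 array. The table holds no detection calls, so that such a probe set cannot be told from background, and none of these 6 was called.

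**Figure D1:**
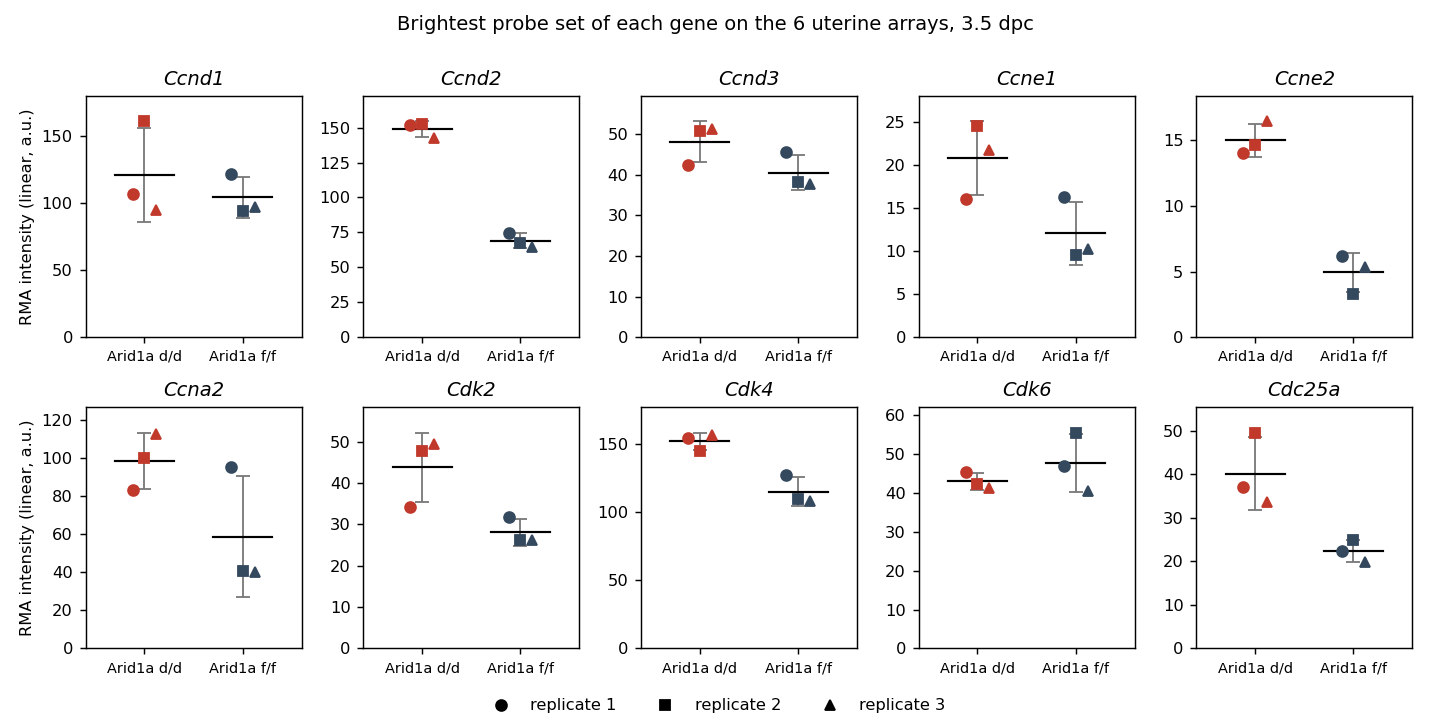
Intensity (vertical axis, RMA, linear scale from 0) of the brightest probe set of each of the 10 genes on the 3 Arid1a d/d and 3 Arid1a f/f arrays; symbols mark the replicate number, black bars the mean and grey bars ± SD. Ccnd2 and Ccne2 are clearly apart between genotypes, whereas Arid1a f/f replicate 1 reaches 95.1 for Ccna2, inside the range of the Arid1a d/d arrays.

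Among the D-type cyclins, which sense growth signals in G1, the genotypes differed most for Ccnd2. Ccnd2 had intensities of 152, 152 and 142 in Arid1a d/d uteri, against 74.9, 67.2 and 64.9 in Arid1a f/f uteri. The lowest Arid1a d/d value was well above the highest Arid1a f/f value, and within a genotype the arrays differed by 1.07-fold in Arid1a d/d uteri and 1.15-fold in Arid1a f/f uteri. The mean was 149 ± 5.59 in Arid1a d/d uteri and 69.0 ± 5.24 in Arid1a f/f uteri (SD, n = 3 each), a log2FC of 1.11 (standard error 0.10, adjusted p = 0.00183, limma), or 2.16-fold with a 95% interval of 1.85 to 2.53. Ccnd2 has 7 probe sets, of which 6 were called higher, with log2FC values of 0.98 to 1.75. All 6 kept the call whichever array was left out. The seventh, at 2.39 to 3.59 in Arid1a d/d uteri and 2.03 to 2.61 in Arid1a f/f uteri, lay near the table median and gave no call (0.44, adjusted p = 0.211, limma).

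Ccnd1, the cyclin whose entry into the nucleus of uterine epithelial cells is under steroid control, gave no call. Its brightest probe set had 107, 161 and 95.2 in Arid1a d/d uteri, against 122, 94.2 and 96.9 in Arid1a f/f uteri. The genotypes overlapped, and only Arid1a d/d replicate 2 stood above all Arid1a f/f arrays. The log2FC was 0.19 (95% interval -0.26 to 0.63, adjusted p = 0.705, limma), and -0.039 without Arid1a d/d replicate 2. The 2 other probe sets of Ccnd1 had 0.50 (adjusted p = 0.2503) and 1.00 (adjusted p = 0.220, limma). On the dimmest of them the values were 25.4, 32.4 and 10.7 in Arid1a d/d uteri, against 10.4, 14.8 and 7.17 in Arid1a f/f uteri, with Arid1a d/d replicate 3 among the Arid1a f/f arrays. This probe set passed only in the fit without Arid1a d/d replicate 3, at 1.47 (adjusted p = 0.0419, limma). Thus 3 probe sets of 1 gene spanned log2FC values of 0.19 to 1.00, with 0.56 for their mean (adjusted p = 0.232, limma).

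Ccnd3, the D-type cyclin associated with decidual cells, had 42.4, 50.7 and 51.4 in Arid1a d/d uteri, against 45.6, 38.2 and 37.9 in Arid1a f/f uteri. Arid1a d/d replicate 1 lay below Arid1a f/f replicate 1, and the log2FC of 0.25 gave no call (95% interval -0.029 to 0.53, adjusted p = 0.332, limma). Its 2 other probe sets were dim, at 2.52 to 4.58 in Arid1a d/d uteri and 3.07 to 3.78 in Arid1a f/f uteri, with log2FC values of 0.080 and -0.17. As the mean of its 3 probe sets Ccnd3 had 0.052.

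The E-type cyclins, which activate CDK2 at the G1 to S boundary, were both higher in Arid1a d/d uteri on at least 1 probe set. Ccne2 had 14.0, 14.6 and 16.5 in Arid1a d/d uteri, against 6.22, 3.33 and 5.35 in Arid1a f/f uteri. The groups did not overlap, and Arid1a f/f replicate 2 was the lowest array and close to the table median. Its log2FC of 1.64 (standard error 0.21, adjusted p = 0.00595, limma), or 3.12-fold with a 95% interval of 2.25 to 4.34, was the highest among the brightest probe sets of the 10 members, and 1.38 without Arid1a f/f replicate 2. It passed in each of the 6 fits that left out 1 array. Ccne2 has only 1 probe set, so no other could be compared with it.

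Ccne1 was measured by 2 probe sets that differ in their call. The brighter had 16.1, 24.4 and 21.7 in Arid1a d/d uteri, against 16.3, 9.58 and 10.2 in Arid1a f/f uteri. Here Arid1a f/f replicate 1 lay just above Arid1a d/d replicate 1, and the log2FC of 0.81 missed the threshold (standard error 0.22, adjusted p = 0.0816, limma), while it was 1.05 without Arid1a f/f replicate 1 and then passed (adjusted p = 0.0364). The other probe set had 10.2, 14.4 and 12.7 in Arid1a d/d uteri, against 7.16, 4.75 and 4.15 in Arid1a f/f uteri. On this one the genotypes did not overlap, and it rose by 1.24 on the log2 scale (standard error 0.21, adjusted p = 0.0152, limma), a call lost without Arid1a f/f replicate 2 or 3 (adjusted p = 0.0729 and 0.0572).

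Ccna2, which encodes the cyclin that pairs with CDK2 through S phase, had 83.1, 100.05 and 112 in Arid1a d/d uteri, against 95.1, 40.7 and 40 in Arid1a f/f uteri. Arid1a f/f replicate 1 was more than double the other Arid1a f/f arrays and lay inside the Arid1a d/d range, which made Ccna2 the member with the widest spread among Arid1a f/f arrays (2.38-fold). The log2FC was 0.86 (standard error 0.30, adjusted p = 0.166, limma) and did not pass. Without Arid1a f/f replicate 1 it was 1.28 and passed (adjusted p = 0.0122, limma). The second probe set repeated this order, with 32.3, 42.2 and 39.2 in Arid1a d/d uteri, against 34.99, 19.1 and 18.9 in Arid1a f/f uteri, and a log2FC of 0.69 (adjusted p = 0.142, limma).

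Of the 3 kinases, only Cdk4 had probe sets that passed. Cdk4, the kinase of the D-type cyclins, had 155, 145 and 157 in Arid1a d/d uteri, against 128, 110 and 109 in Arid1a f/f uteri on its brightest probe set. All Arid1a d/d arrays lay above all Arid1a f/f arrays, and the log2FC was 0.40 (95% interval 0.17 to 0.64, adjusted p = 0.0669, limma). The 2 other probe sets had 0.44 (adjusted p = 0.0329) and 0.56 (adjusted p = 0.0374, limma) and were called higher. The first of these lost the call whichever array was left out, and the second kept it only without Arid1a f/f replicate 1. On all 3 probe sets of this gene the fold lay between 1.32 and 1.47.

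Cdk6, the other kinase of the D-type cyclins, had 45.4, 42.4 and 41.3 in Arid1a d/d uteri, against 46.9, 55.5 and 40.5 in Arid1a f/f uteri. The Arid1a d/d arrays lay within the Arid1a f/f range, and the log2FC was -0.14 (95% interval -0.43 to 0.15, adjusted p = 0.661, limma), the only value below 0 among the brightest probe sets of the 10 members. A second probe set had -0.23 (95% interval -0.62 to 0.15) and the dimmest one, at 2.05 to 2.66 in Arid1a d/d uteri and 2.12 to 2.64 in Arid1a f/f uteri, was below the table median.

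Cdk2, the kinase of cyclins E and A, had 34.1, 47.7 and 49.5 in Arid1a d/d uteri, against 31.9, 26.3 and 26.2 in Arid1a f/f uteri. The groups did not overlap, although Arid1a d/d replicate 1 was close to Arid1a f/f replicate 1. Its log2FC of 0.63 (95% interval 0.27 to 0.99, adjusted p = 0.0624, limma) missed the threshold, and without Arid1a d/d replicate 1 it was 0.80 and passed (adjusted p = 0.0224). The second probe set of Cdk2 was below the table median on every array. Its log2FC was 0.070, which is the value of Cdk2 once probe sets that may detect more than 1 transcript are removed, and the mean of both was 0.35.

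Cdc25a, the phosphatase that removes inhibitory phosphates from CDK2, had 37.1, 49.6 and 33.6 in Arid1a d/d uteri, against 22.3, 25.02 and 19.9 in Arid1a f/f uteri. Every Arid1a d/d array was higher than every Arid1a f/f array, Arid1a d/d replicate 2 was the highest, and it rose by 0.83 on the log2 scale (standard error 0.16, adjusted p = 0.0243, limma), which is 1.77-fold with a 95% interval of 1.38 to 2.27. A second probe set gave a close value, with 25.6, 33.4 and 32.4 in Arid1a d/d uteri, against 18.0, 17.0 and 19.1 in Arid1a f/f uteri (0.75, adjusted p = 0.0150, limma). Leaving out any 1 of the 3 Arid1a f/f arrays took the call from the brighter probe set (adjusted p 0.0622 to 0.0928), and leaving out Arid1a f/f replicate 1 or 2 took it from the second (adjusted p = 0.0512 and 0.0692). The dimmest probe set of Cdc25a, at 1.97 to 2.51 in Arid1a d/d uteri and 2.13 to 2.34 in Arid1a f/f uteri, was below the table median, and the mean of the 3 had a log2FC of 0.53 and kept the call (adjusted p = 0.0184, limma).

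**Figure D2:**
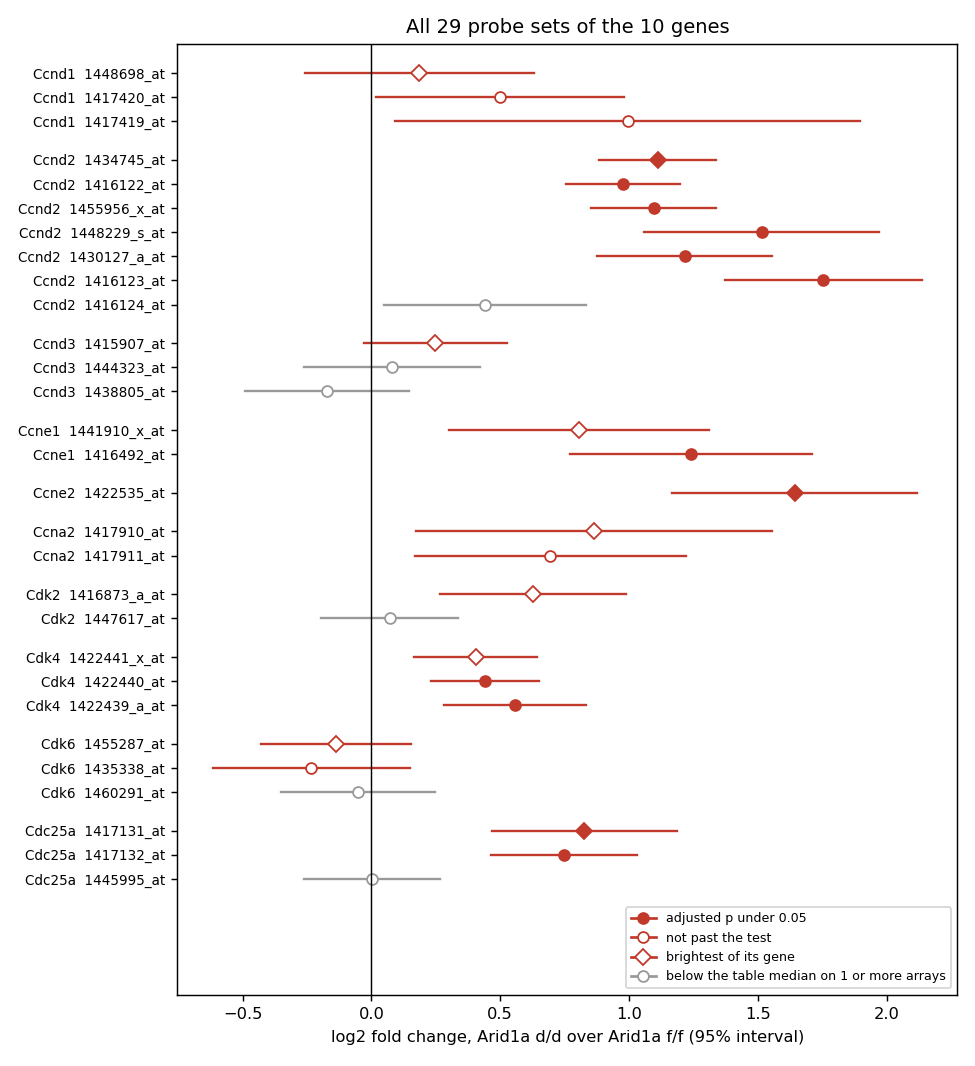
Log2FC with its 95% interval (horizontal axis) for all 29 probe sets (rows); filled symbols passed limma at an adjusted p under 0.05, diamonds mark the brightest probe set of a gene and grey marks those below the table median on at least 1 array. The 6 called probe sets of Ccnd2 lie between 0.98 and 1.75, whereas the 3 of Cdk6 lie at or below -0.052 with intervals that cross 0.

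Whether related members differed from each other was tested on the difference of the log2 intensities of their brightest probe sets within each array, compared between genotypes over 6 pairs (exact permutation test, two-sided, with 3 arrays against 3, for which 0.10 is the smallest possible p). The log2FC of Ccnd2 exceeded that of Ccnd3 by 0.86 ± 0.11 (standard error) and that of Ccnd1 by 0.92 ± 0.22, the fold change of Ccnd1 minus Ccnd2 being -0.92. Ccne2 exceeded Ccne1 by 0.84 ± 0.24, Cdk4 exceeded Cdk6 by 0.54 ± 0.16, and Ccne2 exceeded Cdk2 by 1.02 ± 0.25. In these 5 pairs the within-array differences did not overlap between genotypes, and each had an exact permutation p of 0.10 (0.12 after adjustment over the 6 pairs), which this design cannot pass. Ccnd1 and Ccnd3 differed by -0.062 ± 0.23 with overlapping arrays (exact permutation p = 0.80). With the mean of all probe sets of a gene, an alternative chosen after seeing the data, Ccnd1 minus Ccnd2 was -0.60 ± 0.26 (exact permutation p = 0.10), Ccnd1 minus Ccnd3 was 0.51 ± 0.31 (exact permutation p = 0.30), and Ccne2 minus Ccne1 was 0.62 ± 0.26 with overlapping arrays (exact permutation p = 0.20).

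The arrays of a genotype were not alike across the members. Arid1a f/f replicate 1 had the highest Arid1a f/f value for 8 of 10 members and the lowest for 0, and Arid1a f/f replicate 3 had the lowest for 7. The summed intensity of the 10 brightest probe sets was 686, 788 and 721 in Arid1a d/d uteri, against 589, 469 and 450 in Arid1a f/f uteri. A list of 24 measured S phase and proliferation transcripts, such as those of the replicative helicase, was chosen with earlier results of these data known. The paper lists some of them as raised on these arrays. This list also had its highest Arid1a f/f sum and its lowest Arid1a d/d sum on replicate 1. The sums were 2068, 2552 and 2417 in Arid1a d/d uteri, against 1651, 1136 and 1206 in Arid1a f/f uteri. Ccna2 and Ccne1 were raised on Arid1a f/f replicate 1 relative to the other Arid1a f/f arrays, whereas Ccnd2 differed little among them.

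**Figure D3:**
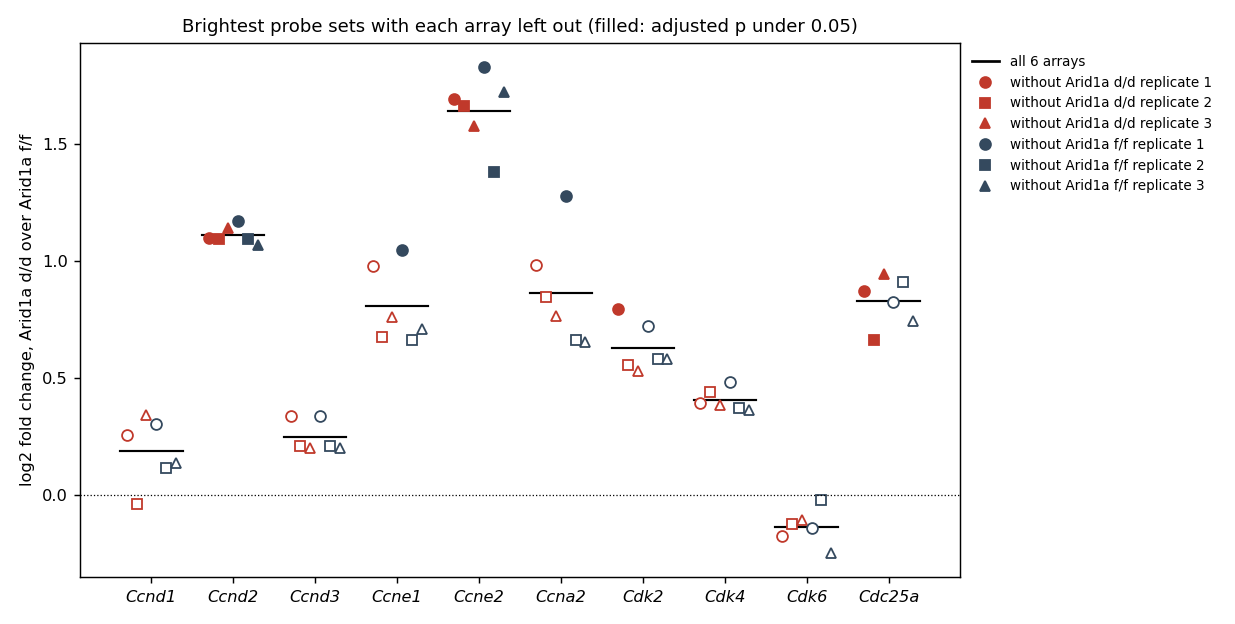
Log2FC (vertical axis) of the brightest probe set of each gene with all 6 arrays (black bar) and with each array left out in turn (symbols, filled if called by limma at an adjusted p under 0.05). Ccnd2 stays between 1.07 and 1.17 and Ccne2 between 1.38 and 1.83, while Ccna2 ranges from 0.65 to 1.28.

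Regulators that act on these kinases or on their targets were compared in the same fit. The list held genes of inhibitors, CDK-binding subunits, ubiquitin ligases, retinoblastoma proteins and E2F factors. It also held Wee1, Cdc25b, Myc, Cdk7, Ccnh and Mnat1. Of its 34 measured genes, 9 were higher, 1 was lower and 24 did not pass, with a median log2FC of 0.26. This is 26.5% higher and 2.94% lower, beside 3.37% and 4.06% of all genes, in a list chosen with earlier results of these data known. Tfdp1, which encodes the dimer partner of E2F, had 91.9, 96.4 and 96.6 in Arid1a d/d uteri, against 56.6, 54.4 and 54.7 in Arid1a f/f uteri (log2FC 0.78, adjusted p = 0.00428, limma). Fbxo5, the inhibitor of the anaphase-promoting complex EMI1, had a log2FC of 0.92 (adjusted p = 0.0101), Cks1b, a CDK-binding subunit that helps mark p27 for destruction, one of 0.95 (adjusted p = 0.0128), and E2f8, a repressor E2F, one of 1.53 (adjusted p = 0.0188, limma). Cdkn1c, which encodes the CDK inhibitor p57, was the member that fell, with 21.4, 20.0 and 16.2 in Arid1a d/d uteri, against 27.4, 33.0 and 28.5 in Arid1a f/f uteri (log2FC -0.63, adjusted p = 0.0331, limma). Tfdp1 and Fbxo5 passed whichever array was left out, Cks1b and E2f8 did not pass without Arid1a f/f replicate 2 or 3, and Cdkn1c passed only without Arid1a d/d replicate 1. Calls in this list depended on single arrays. Higher genes were 2 when Arid1a f/f replicate 2 was left out, 3 for Arid1a f/f replicate 3, 4 for Arid1a d/d replicate 2 or 3 and 6 for Arid1a d/d replicate 1, and Cdkn1c was the lower gene only in that last fit, in which 1 gene was lower. Over all genes, 139 were higher with Arid1a f/f replicate 2 left out and 173 with replicate 3 of that genotype left out, against 613 with every array.

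Cyclins and CDKs that act outside G1 and S control were taken as a list of their own, also chosen with earlier results of these data known. Ccnb1, which the paper lists as raised on these arrays, was on the list but had no probe set assigned to it alone. Of 29 measured, 3 were higher, 1 was lower and 25 did not pass, with a median of 0.046. The share lower, 3.45%, was near the 4.06% of all genes, and the share higher was 10.3% beside 3.37%. The higher ones were Ccnf (log2FC 0.67, adjusted p = 0.0129), a cyclin of a ubiquitin ligase, Cdk1 (0.99, adjusted p = 0.0319), the kinase of mitosis, and Ccnc (0.61, adjusted p = 0.0456, limma), a subunit of the Mediator kinase module. Ccng2, a cyclin that is linked to cell cycle arrest, had 32.4, 30.3 and 33.8 in Arid1a d/d uteri, against 52.1, 58.8 and 58.6 in Arid1a f/f uteri, and was lower by a log2FC of -0.81 (adjusted p = 0.00556, limma) that passed whichever array was left out. Ccnf did not pass without Arid1a f/f replicate 2 or 3, Cdk1 passed only without Arid1a f/f replicate 1, and Ccnc lost its call whichever array was left out. With Arid1a f/f replicate 2 or 3 left out, 0 genes of the list were higher, and 1 was with any 1 Arid1a d/d array left out. Leaving out Arid1a f/f replicate 1 gave 2 lower genes. The median was -0.0028 when Arid1a f/f replicate 2 was dropped and -0.0056 when Arid1a d/d replicate 3 was. The S phase and proliferation transcripts, chosen with earlier results of these data known, gave 19 higher and 0 lower of 24, with a median of 0.94. Their higher genes numbered 1 without Arid1a f/f replicate 2, 5 without Arid1a f/f replicate 3 and 8 with Arid1a d/d replicate 2 or 3 left out, while the median was 0.81 to 1.08 over the 6 fits that left out 1 array.

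**Figure D4:**
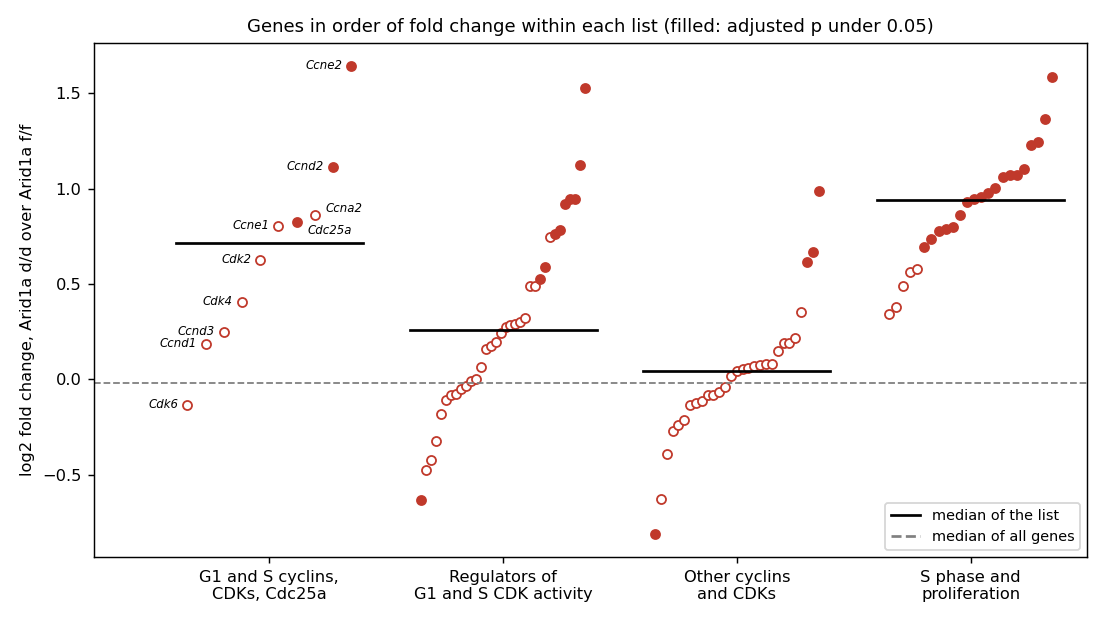
Log2FC (vertical axis) of each measured gene in 4 lists, in order within its list and filled if called by limma at an adjusted p under 0.05. The black bars are the list medians, 0.72 for the 10 G1 and S genes, 0.26 for their regulators, 0.046 for the other cyclins and CDKs and 0.94 for the S phase transcripts, and the dashed line is the median of all genes, -0.018.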

How the data were processed

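Per the study's methods, the authors ran RMA on the arrays and scaled them globally to a trimmed mean of 100, and the submitters' processing notes name RMA without a version. The deposited table holds these values as a linear intensity from 1.29 to 4479 for 45037 probe sets on 6 arrays, and its scaling differs from that target (a trimmed mean of 16.4 to 17.2), for which no reason is given in the sources used here. Log2 was taken before testing, with no filter. Names of probe sets come from the platform annotation, and symbols were updated by Entrez ID to GRCm38.p6 (34741 of 34945 that name 1 gene matched). Arid1a d/d arrays were set against Arid1a f/f arrays with lmFit and eBayes of limma 3.58.1 (R 4.3.3), two-sided, adjusting by Benjamini-Hochberg across the whole table, and the fit was tested on simulated data. The brightest probe set, by mean log2 intensity, represented a gene. Values of single genes are given for all 10 members and Arid1a. For the regulators and the other cyclins and CDKs they are given for up to 4 past the test with the lowest adjusted p in each direction. Genes of the S phase and marker lists were only counted and summed. The members and lists were chosen with earlier results of these data known. Some listed genes, Ccnb1 among them, were not analysed here. The fit was repeated with a replicate block, after quantile normalization or median centring, without the dimmest 25% of probe sets, with array weights, with trend and robust options in eBayes, with the methods' t-test, with other probe sets per gene, at other thresholds and without each array. The methods name the t-test for comparing a pair of groups in general, and its use on the arrays was added here. Precision is limited by the number of arrays.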

Additional observations from a re-analysis of the deposited data

How the results depend on the processing

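Among the 10 genes, the count of higher ones was 3 with all arrays and 2 to 4 with 1 array left out, and that of lower ones was 0 in every alternative. It was 5 with the trend and robust options (Cdk2 and Cdk4 added), 5 after removing probe sets that may hybridize to more than 1 transcript and 5 with the mean of a gene's probe sets (Ccne1 and Cdk4 added in both), 6 at an adjusted p under 0.10, and 0 with the methods' t-test after adjustment (adjusted p 0.103 for Ccnd2, 0.168 for Ccne2 and 0.212 for Cdc25a, with 5 higher and 0 lower at its unadjusted p under 0.05). By probe set the higher ones numbered 12, 7 to 12 with 1 array left out (7 without Arid1a f/f replicate 2) and 0 with the methods' t-test (14 higher and 0 lower unadjusted). For the genes, the median log2 fold change of 0.72 with all arrays was 0.61 to 0.83 with 1 array left out and 0.54 with the mean of a gene's probe sets. With that mean Ccnd1 was 0.56, Ccnd3 0.052, Cdk2 0.35 and Cdc25a 0.53, and after removing probe sets for more than 1 transcript Ccne1 was 1.24 and Cdk2 0.070. Ccnd1, at 0.19, was -0.039 without Arid1a d/d replicate 2 and at most 0.34 (without Arid1a d/d replicate 3), and the cause was not tested. Of 150 values of single genes under the alternatives, 133 kept direction and call, 10 gained a call, 6 lost one and 1 turned. Deviations of arrays that share a replicate number in the titles correlated at -0.0036, 0.047 and 0.14 for numbers 1, 2 and 3. Arid1a d/d replicates 2 and 3 correlated best with the Arid1a f/f array of the same number. Arid1a d/d replicate 1 correlated best with Arid1a f/f replicate 2 (0.065). Whether the numbers mark a pairing was not tested. With the replicate block 3 genes and 11 probe sets were higher, and the call of no gene changed. Low signal limits the 6 probe sets that lie below the table median, 3.12, on at least 1 array.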
